A study of Mus musculus with 20 samples.

Results

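The 33 genes that encode the subunits of the 2 GCN5-type histone acetyltransferase complexes, SAGA and ATAC, were followed across all 10 groups of the series, out of 46603 gene identifiers in the count table. They were chosen by name as complex members, with earlier results of these data known. The series measured gene counts of total RNA in 20 mouse libraries, 2 per group. All T cell libraries were of OT-I/Cas9 CD8 lymphocytes, which carry 1 transgenic T cell receptor for an ovalbumin peptide and express Cas9, and every T cell culture was kept with IL-2, IL-7, IL-15 and puromycin. The melanoma libraries came from B16F10 cells, a mouse melanoma line, grown with puromycin. The melanoma groups were Ccdc101 knockout (KO) cells with TG (thapsigargin, which blocks SERCA, the pump that loads calcium into the endoplasmic reticulum), Ccdc101 KO cells with dimethyl sulfoxide vehicle, control cells with TG and control cells with vehicle. The T cell groups were Atp2a2 KO cells with vehicle labelled activated, Atp2a2 KO cells with vehicle labelled resting, and control cells that were activated or resting, each with TG or with vehicle. TG was given at 50 ng/mL for 8 hours and activation was by plate-bound anti-CD3 at 2.5 µg/mL for 24 hours. Whether a KO culture was 1 clone or a pool, and whether the 2 libraries of a group came from separate cultures, is not given in the sources used here, so p-values measure the spread between these libraries, which may be technical.

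SAGA is a large coactivator that acetylates histone H3 at promoters and removes ubiquitin from histone H2B. It is built from an acetylation module (Kat2a or Kat2b with Tada2b, Tada3 and Sgf29), a core of histone-fold and TAF proteins, the activator-binding subunit Trrap, 2 SF3B splicing-factor subunits, and a deubiquitinase module around Usp22. ATAC shares Kat2a or Kat2b, Tada3 and Sgf29, uses Tada2a in place of Tada2b, and adds a second acetyltransferase, Kat14, with Zzz3, Yeats2, Mbip, Wdr5, Dr1, Pole3 and Chrac1. Ccdc101, the gene knocked out in the melanoma cells, is the older name of Sgf29, whose protein reads methylated lysine on histone H3 for both complexes.

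The libraries held between 9985311 and 17462770 counts, and the 33 genes together took 0.226% of all counts. Summed melanocyte markers ran from 10322 to 16152 CPM (the usual library-size-scaled count, here scaled over the 20 libraries) in the melanoma libraries and reached at most 7.81 CPM in the T cell libraries, and CD8 T cell markers ran from 3687 to 9170 CPM in the T cell libraries and reached at most 7.7 CPM in melanoma. The 2 libraries labelled resting Atp2a2 KO had 35341 and 35535 CPM of summed activation markers, against 34607 to 35372 CPM in activated control libraries and 13739 to 14241 CPM in resting control libraries with vehicle. These 2 libraries therefore went against their label, and they are called the libraries labelled resting below. Atp2a2, the targeted SERCA pump gene, had 434 and 436 CPM in activated Atp2a2 KO cells and 455 and 452 CPM in the libraries labelled resting. Activated control cells had 664 and 687 CPM. In control cells with vehicle, activation raised Atp2a2 3-fold (log2 change 1.58). The level in the libraries labelled resting was therefore below that of activated but not of resting control cells. In bulk RNA, fewer cells of a type and less RNA per cell cannot be told apart.

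Unless a 20-library scale is named, CPM here are scaled within the melanoma or within the T cell libraries. A gene was called when edgeR's quasi-likelihood test gave a Benjamini-Hochberg adjusted p below 0.05 over all tested genes, and values after a log2 change are its standard error (SE). All 33 genes passed the filter on low counts in every comparison. Taf9 passed with only 7 to 26 counts per library and was called in no comparison. 73.8% of its exon bases lie on the same strand as exons of Ak6, where counts cannot be assigned to 1 gene, so this value may not follow Taf9 mRNA, and Taf9 is left out of the figures. Strand use in counting is not given in the sources used here, so counts of Taf10 (45.9% of exon bases overlapped on the opposite strand by Ilk), Tada1 (25.6%, Pogk), Tada2b (10.8%, Grpel1) and Chrac1 may include reads of opposite-strand neighbours. Exons of Pet117, which had 0 counts, overlap 14.7% of Kat14 exon bases on the same strand. Gm13316 shares 15.4% of the 50-base stretches of Taf5l transcripts. Counts of Kat14 and Taf5l may therefore miss or include some reads.

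As a set these genes varied less between groups than most genes. On the 20-library scale the highest group mean was 1.97 times the lowest at the median of the 33 genes, against 4.18 times at the median of 14824 tested genes. 17 of the 33 genes (51.5%) stayed within a 2-fold range, against 18.1% of tested genes. The tested genes were not matched to the 33 for level. They include genes that passed the filter in only 1 of the 2 cell types, which none of the 33 did. Whether genes of like level found in both cell types vary more than the 33 was not tested. Chrac1, a histone-fold partner of Pole3, had the smallest range, 1.21-fold. The largest ranges were those of Atxn7l1 (6.25-fold), Supt3 (4.2-fold), Atxn7 (4.14-fold), Kat2b (4.13-fold), Kat2a (3.43-fold) and Tada2b (3.31-fold). Per kilobase of exon on the 20-library scale, Kat2a was the highest of the 33 genes in all 4 melanoma groups, at 44.5 CPM per kb in KO cells with TG and 62.6 with vehicle, and at 39.5 in control cells with TG and 64.3 with vehicle. In the T cell groups Sf3b3 or Dr1 came first, Sf3b3 at 44.4 and Dr1 at 31.1 CPM per kb in activated cells with vehicle. The divisor was the length of all annotated exons of a gene together, 10919 bases for Sf3b3 and 3480 for Kat2a, and not the length of 1 mRNA. This order therefore depends on the annotation. Before that division Sf3b3 had 451 and 430 CPM and Kat2a 224 and 223 CPM in control melanoma with vehicle.

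**Figure D1:**
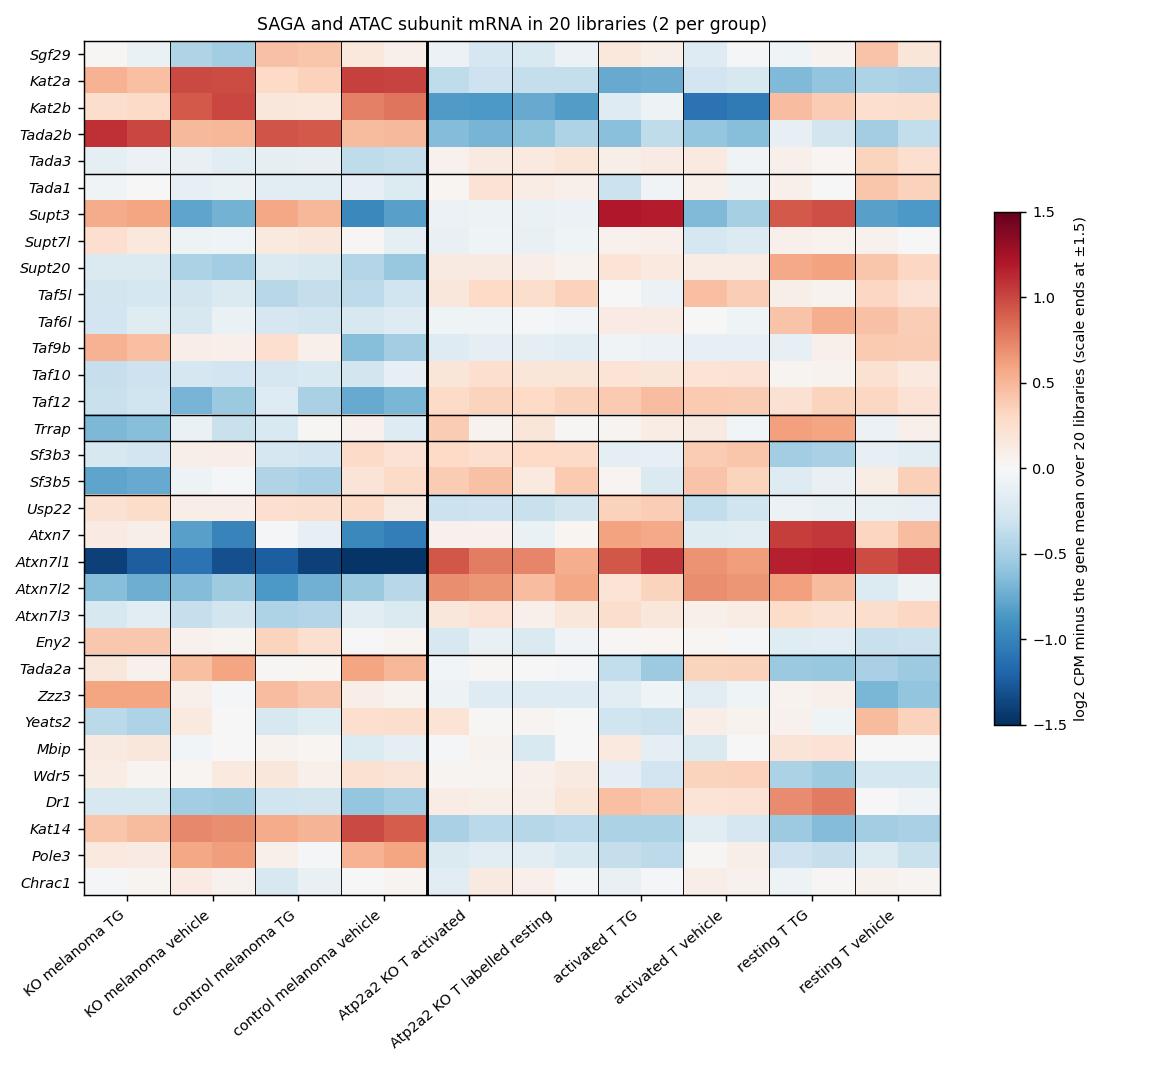
Each row is 1 gene and each column 1 library; colour is log2 CPM (20-library scale) minus the gene's mean over the 20 libraries, lines between rows separate the modules, and the heavy vertical line separates melanoma from T cells. Atxn7l1 and Atxn7 are low in melanoma vehicle libraries, Kat2a and Kat14 are high in melanoma, and Supt3 is higher in every TG group than in its vehicle group.

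Sgf29 (Ccdc101, ENSMUSG00000030714, chr7:126649309-126672925 on the plus strand of GRCm38) was lower in the melanoma cells labelled KO, but its mRNA was not lost. With vehicle it had 19.6 and 18.7 CPM in KO cells, against 29.6 and 28.2 CPM in control cells (log2 change -0.59 ± 0.085, adjusted p = 6.6e-07). With TG it had 27.1 and 25.0 CPM in KO cells, against 36.0 and 35.6 CPM in control cells (-0.46 ± 0.081, adjusted p = 1.8e-05). The KO and control libraries did not overlap under either treatment. Such counts bear on the amount of mRNA and not on the protein. TG raised Sgf29 in both melanoma genotypes, by 0.44 ± 0.09 in KO cells (adjusted p = 4e-05) and by 0.31 ± 0.077 in control cells (adjusted p = 0.00051). With TG in resting T cells the direction was the opposite, with 22.2 and 24.1 CPM in TG cells against 31.6 and 26.6 CPM in vehicle cells (-0.34 ± 0.092, adjusted p = 0.001), and this call was lost without vehicle replicate 1 (-0.20, adjusted p = 0.12). In activated T cells Sgf29 had 26.8 and 25.6 CPM with TG and 21.2 and 23.8 CPM with vehicle (0.23 ± 0.09, adjusted p = 0.025), a call lost without vehicle replicate 1 (adjusted p = 0.31) or without TG replicate 1 (adjusted p = 0.095). Exons of an antisense gene, 2510046G10Rik, overlap 9.4% of Sgf29 exon bases on the opposite strand. The TG effect differed between activated and resting T cells (0.57 ± 0.13, adjusted p = 0.0002) and between control melanoma and resting T cells (0.63 ± 0.12, adjusted p = 8.5e-06).

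The 250 bases before the start of Sgf29 are shown because it is the knocked-out subunit and because this window holds 1 of the stress-response motifs searched for below. They lie at chr7:126649059-126649308 on the plus strand (RefSeq, GRCm38.p6), and capitals mark a copy of TGACGTG, the core of the unfolded protein response element, read on the minus strand.
Sgf29: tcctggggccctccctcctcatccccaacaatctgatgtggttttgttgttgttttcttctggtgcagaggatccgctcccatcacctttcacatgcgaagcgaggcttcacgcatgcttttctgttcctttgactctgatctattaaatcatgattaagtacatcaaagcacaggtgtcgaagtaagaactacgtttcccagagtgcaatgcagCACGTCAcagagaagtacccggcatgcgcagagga

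**Figure D2:**
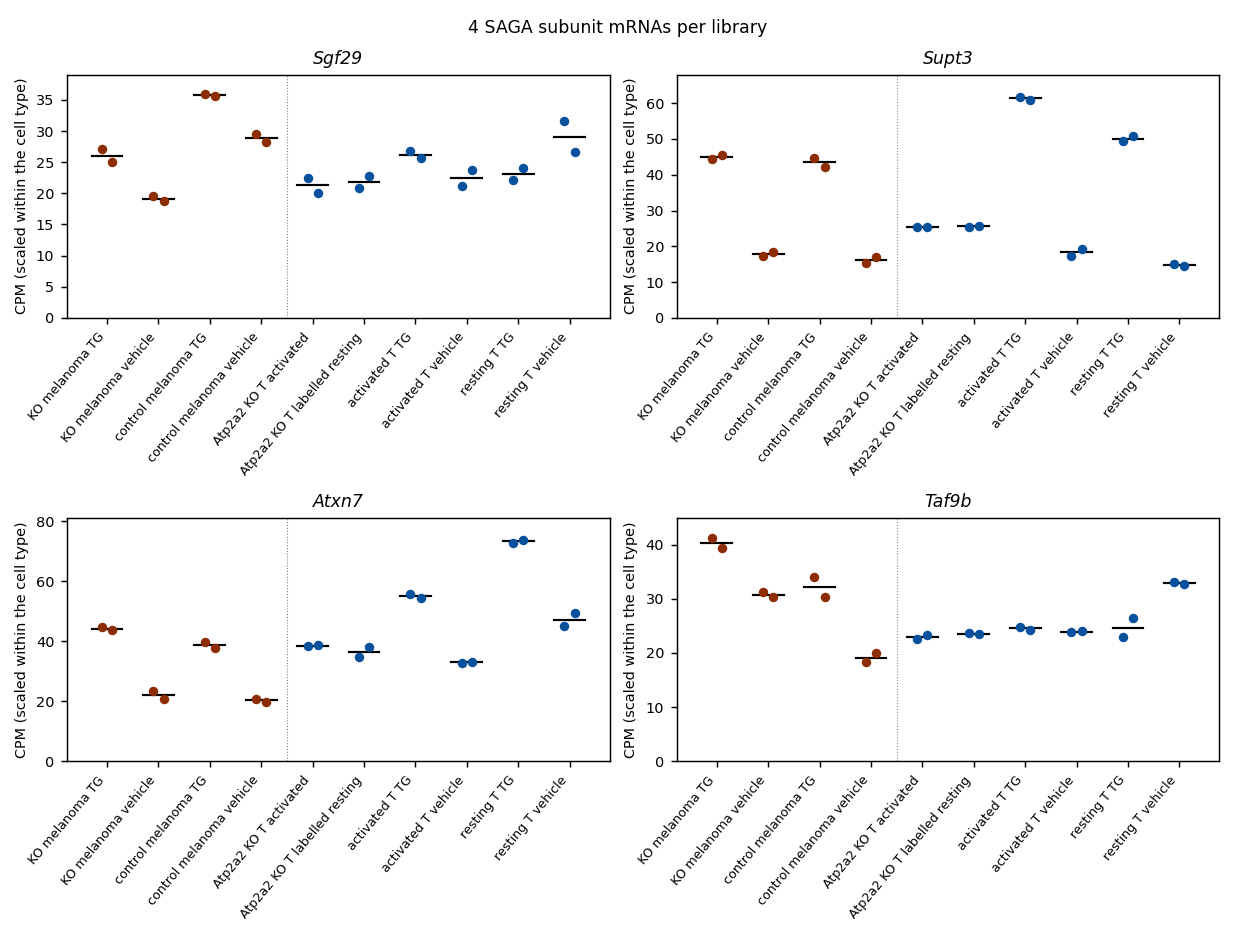
CPM scaled within the cell type for Sgf29, Supt3, Atxn7 and Taf9b; points are single libraries, short lines the mean of the 2 libraries of a group, brown melanoma and blue T cells. Sgf29 is lower in KO melanoma than in control melanoma under each treatment, and Supt3 and Atxn7 are higher with TG in every pair of groups.

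The share of subunit genes that differed between KO and control melanoma was near that of all tested genes with vehicle and lower with TG. With vehicle 4 of the 33 genes were higher and 5 lower in KO than in control melanoma (27.3%), Sgf29 among those lower, where 25.7% of 12540 tested genes were called, 12.4% higher and 13.3% lower. With TG 5 were higher and 3 lower (24.2%), where 31.5% of tested genes were called, 16.6% higher and 15% lower. The largest rise was in Taf9b, which encodes the TAF9 paralog of the SAGA core. It had 31.2 and 30.4 CPM in KO cells with vehicle, against 18.3 and 20 CPM in control cells with vehicle (0.69 ± 0.085, adjusted p = 2.4e-08). With TG it had 41.3 and 39.4 CPM in KO cells, against 34.1 and 30.3 CPM in control cells (0.32 ± 0.078, adjusted p = 0.0012), and this smaller difference lost its call without control TG replicate 2 (0.25, adjusted p = 0.059). Sf3b5, a small subunit that SAGA shares with the SF3B splicing complex, was lower in KO cells with vehicle (-0.27 ± 0.059, adjusted p = 0.0004) and with TG (-0.30 ± 0.075, adjusted p = 0.0019). Kat14 fell with vehicle (-0.23, adjusted p = 0.00018), as did Sf3b3 by a smaller step (-0.14, adjusted p = 0.001). With TG, the deubiquitinase adaptor gene Atxn7l3 (0.26, adjusted p = 0.00012), Kat2a (0.18, adjusted p = 0.001) and Zzz3 (0.17, adjusted p = 0.0022) were higher in KO cells. These calls, other than that of Taf9b with TG, were kept with each library left out in turn; DESeq2 gave adjusted p = 0.051 for Sf3b5 with TG.

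The remaining KO calls were less firm, as each was lost on leaving out any 1 of several libraries. DESeq2 made none of them. With vehicle its adjusted p was 0.19 for Kat2b, 0.24 for Tada3, 0.37 for Atxn7l1 and 0.2 for Yeats2. With TG it was 0.12 for Yeats2 and 0.32 for Atxn7. With vehicle, Kat2b (0.20) and Tada3 (0.26) lost their calls without control replicate 1, with adjusted p of 0.088 and 0.11, and without KO replicate 2 or 1 with 0.11 and 0.12. Atxn7l1 (0.29) lost its call without control replicate 1, control replicate 2 or KO replicate 1, with adjusted p of 0.14, 0.11 and 0.44. Yeats2 (-0.16 with vehicle, -0.22 with TG) lost the first call without control replicate 2 or KO replicate 2 (adjusted p = 0.06 and 0.26) and the second without control TG replicate 2 or KO TG replicate 2 (adjusted p = 0.1 and 0.11). Atxn7 (0.19 with TG) lost its call without control TG replicate 2, KO TG replicate 1 or KO TG replicate 2 (adjusted p = 0.25, 0.14 and 0.09). Of the closest partners of Sgf29 in the acetylation module, Tada2b had 49.8 and 50.1 CPM in KO cells and 48.9 and 49.4 CPM in control cells with vehicle, and Kat2a had 236 and 233 CPM in KO cells and 238 and 238 CPM in control cells with vehicle. Neither was called with vehicle (adjusted p = 0.81 and 0.75).

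5 of the 33 genes responded to TG differently in KO than in control melanoma, 4 upward and 1 downward (15.2%), where 13.1% of 12540 tested genes were called, 7.16% upward and 5.95% downward. Atxn7l3 differed most firmly (0.36 ± 0.072, adjusted p = 0.00041). It had 91.8 and 96.4 CPM with TG and 85.9 and 89.8 CPM with vehicle in KO cells, and 77.7 and 79.4 CPM with TG and 94.7 and 92.9 CPM with vehicle in control cells. TG thus lowered Atxn7l3 in control melanoma (-0.26, adjusted p = 2.4e-05), and in KO cells its change was 0.10 and was not called. The differences for Kat2a (0.20), Zzz3 (0.20), Sf3b3 (0.16) and Taf9b (-0.37) were less firm. The Kat2a call was lost without KO TG replicate 1 (adjusted p = 0.085). The Sf3b3 call was lost without control vehicle replicate 1, control TG replicate 2, KO vehicle replicate 1 or KO TG replicate 1 (adjusted p = 0.12, 0.081, 0.058 and 0.13). The Zzz3 call was lost without control vehicle replicate 1, control TG replicate 2, KO vehicle replicate 2 or KO TG replicate 2 (adjusted p = 0.059, 0.084, 0.097 and 0.057). The Taf9b call was lost without 5 of the 8 libraries, control vehicle replicate 1, control TG replicate 1, KO vehicle replicates 1 and 2, and KO TG replicate 2, with adjusted p up to 0.18.

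Across the 4 settings in which TG was compared with vehicle, about as many subunit genes were called as genes in general, and the sizes were smaller. In control melanoma 12 of the 33 genes rose and 11 fell (69.7%), where 71.8% of 12540 tested genes were called, 35.7% up and 36.1% down. In KO melanoma 12 rose and 8 fell (60.6%, against 70.3% of tested genes, 34.1% up and 36.3% down). Among resting T cells 10 rose and 11 fell (63.6%, against 69.2% of 13432 tested genes, 34.1% up and 35.2% down), and in activated T cells 9 rose and 11 fell (60.6%, against 65.0% of tested genes, 32.6% up and 32.4% down). The median size of the log2 change was 0.28, 0.31, 0.21 and 0.28 over the 33 genes in that order, against 0.47, 0.43, 0.47 and 0.42 over all tested genes. These 4 comparisons share no libraries. 3 genes rose in all 4 of them, Supt3, Atxn7 and Dr1, where 13.5% of the 11195 genes tested in all 4 rose in each. 4 genes fell in all 4, Kat2a, Sf3b3, Sf3b5 and Yeats2, where 13.8% of those genes fell in each. The calls of Kat2a and Sf3b5 in resting T cells were lost without TG replicate 1 (adjusted p = 0.11 and 0.08).

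**Figure D3:**
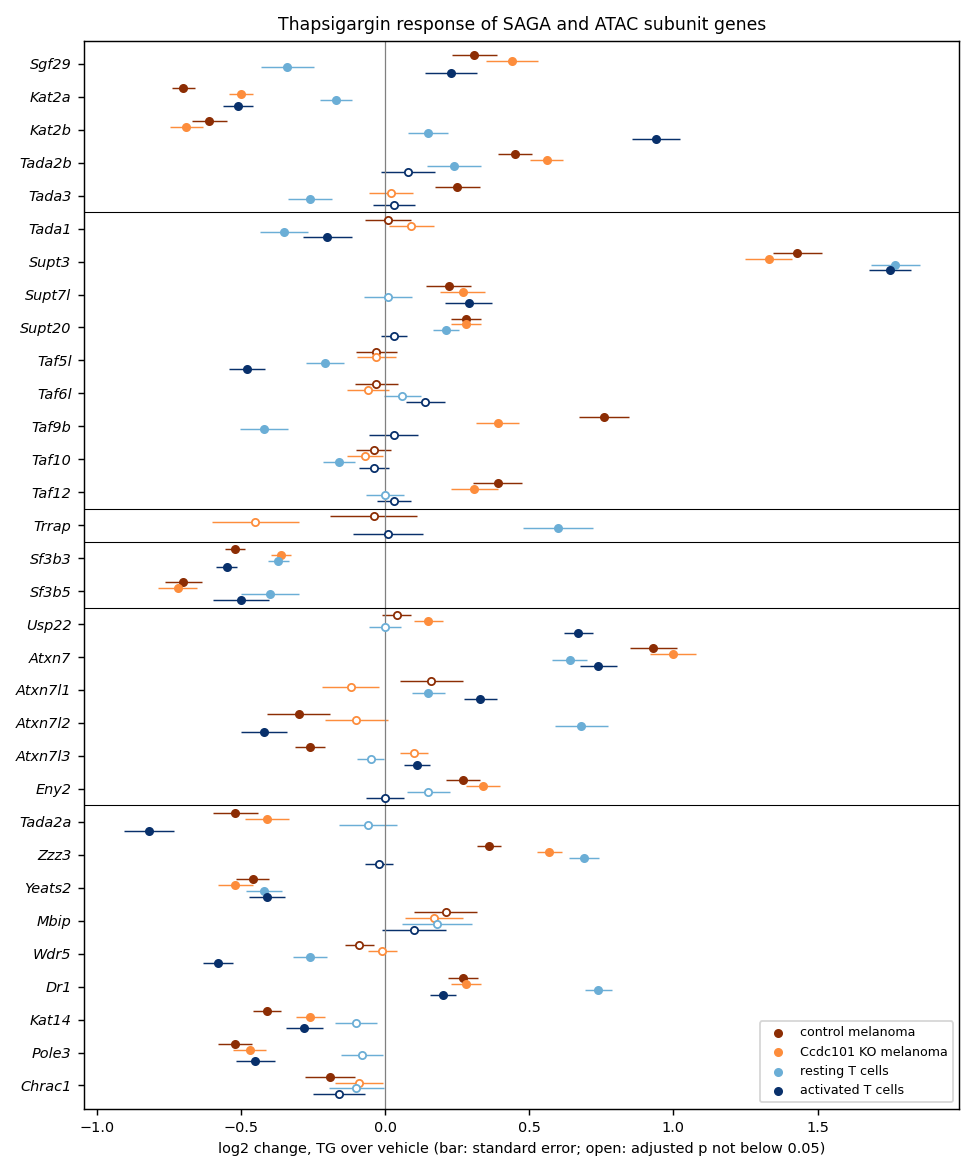
Log2 change of TG over vehicle for 32 genes in the 4 settings, with standard errors as bars; filled points were called at adjusted p below 0.05 and open points were not, and lines separate the modules. Supt3 stands apart at 1.33 to 1.77 in all 4 settings, and Kat2b lies below 0 in melanoma and at 0.94 in activated T cells.

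The 2 alternative catalytic subunits, Kat2a (GCN5, ENSMUSG00000020918, chr11:100704746-100712465, minus strand) and Kat2b (PCAF, ENSMUSG00000000708, chr17:53566861-53672720, plus strand), responded alike to TG in melanoma and apart in T cells. In control melanoma Kat2a had 144 and 149 CPM with TG, against 238 and 238 CPM with vehicle (-0.70 ± 0.04, adjusted p = 3e-19). Kat2b had 45.9 and 45.7 CPM with TG, against 68.7 and 70.9 CPM with vehicle (-0.61 ± 0.06, adjusted p = 4.7e-12). In KO melanoma the changes were -0.50 ± 0.04 for Kat2a and -0.69 ± 0.057 for Kat2b, and both were called. TG and vehicle libraries did not overlap for either gene.

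In activated T cells Kat2a fell and Kat2b rose. Kat2a had 62.5 and 62.9 CPM with TG, against 87.8 and 91.1 CPM with vehicle (-0.51 ± 0.052, adjusted p = 7.7e-13). Kat2b had 32.3 and 35.0 CPM with TG, against 17.3 and 17.9 CPM with vehicle (0.94 ± 0.083, adjusted p = 5.6e-15). Resting T cells showed small changes, Kat2a by -0.17 (adjusted p = 0.0048) and Kat2b by 0.15 (adjusted p = 0.049). The Kat2b call was lost without vehicle replicate 1, vehicle replicate 2 or TG replicate 1 (adjusted p = 0.15, 0.11 and 0.23), with the term for replicate number (adjusted p = 0.056) and by DESeq2 (adjusted p = 0.28); the Kat2a call was also lost by DESeq2 (adjusted p = 0.069). The TG effect on Kat2b was larger in activated than in resting T cells (0.79 ± 0.11, adjusted p = 1.1e-08), and lower in control melanoma than in activated T cells (-1.57 ± 0.1, adjusted p = 4.5e-23).

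Activation lowered Kat2b more than any other subunit gene, with 17.3 and 17.9 CPM in activated cells against 42.8 and 43.2 CPM in resting cells with vehicle (-1.29 ± 0.08, adjusted p = 2.6e-21). With TG the same step was -0.50 ± 0.071. The ratio of Kat2a to Kat2b, each per kilobase of exon, was 7.12 and 7.1 in activated T cells with vehicle and 2.45 and 2.39 in resting T cells with vehicle. With TG the ratio was 2.7 and 2.52 in activated cells and 1.84 and 2.05 in resting cells. Activated cells thus held a ratio with TG that was close to that of resting cells with vehicle. In melanoma the ratio kept to a narrow range, 4.82 and 4.54 with TG and 4.22 and 3.96 with vehicle in KO cells, and 4.39 and 4.57 with TG and 4.84 and 4.7 with vehicle in control cells. A processed copy, Kat2b-ps, shares 7.28% of the 50-base stretches of Kat2b transcripts, and how reads from these were counted is not given in the sources used here; Kat2a shares none with other genes.

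The 250 bases before each start are shown for the contrast between these paralogs. Neither window, Kat2a at chr11:100712468-100712717 (minus strand) or Kat2b at chr17:53566721-53566970 (plus strand; RefSeq lists a second start further downstream), held any of the motifs searched for, so no capitals are used.
Kat2a: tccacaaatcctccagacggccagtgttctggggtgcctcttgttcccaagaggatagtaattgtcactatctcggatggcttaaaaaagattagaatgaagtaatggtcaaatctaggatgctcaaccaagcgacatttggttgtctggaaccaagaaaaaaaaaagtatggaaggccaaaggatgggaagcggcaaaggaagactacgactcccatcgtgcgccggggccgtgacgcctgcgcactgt
Kat2b: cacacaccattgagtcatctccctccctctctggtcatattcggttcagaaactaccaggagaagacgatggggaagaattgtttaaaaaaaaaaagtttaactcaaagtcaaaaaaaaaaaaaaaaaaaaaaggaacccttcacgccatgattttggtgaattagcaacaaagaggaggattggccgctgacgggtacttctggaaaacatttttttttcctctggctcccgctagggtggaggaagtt

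**Figure D4:**
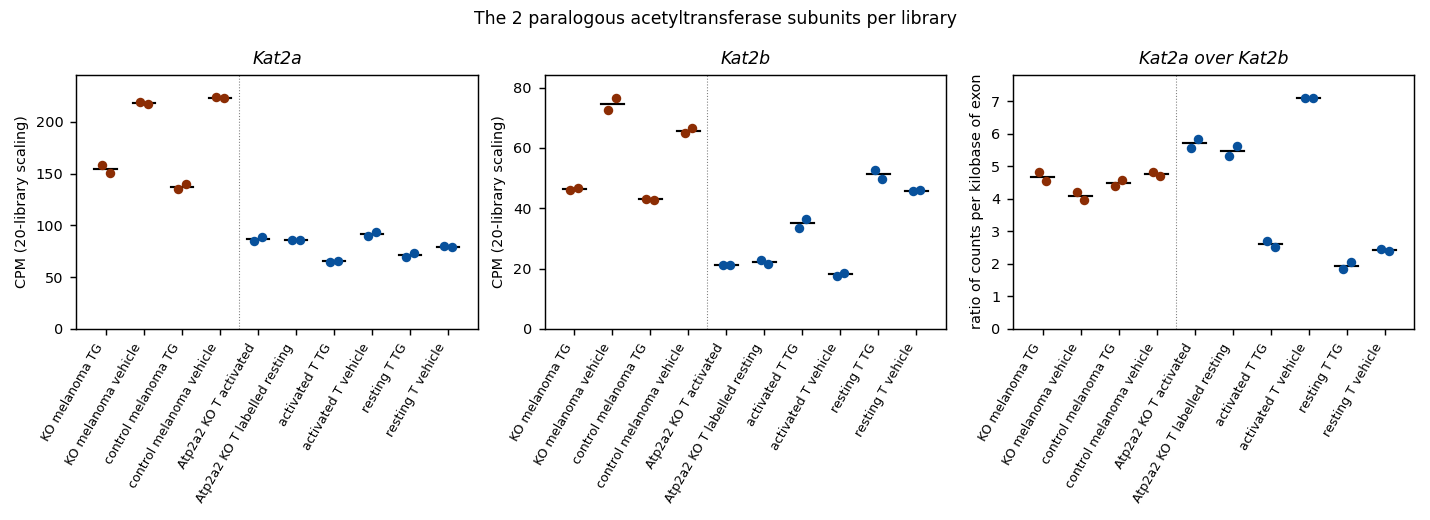
CPM (20-library scale) of Kat2a and Kat2b and the ratio of their counts per kilobase of exon in each library; points are libraries, short lines group means, brown melanoma and blue T cells. The ratio is 7.12 and 7.1 in activated T cells with vehicle and 2.7 and 2.52 with TG.

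The adaptor that tells the complexes apart, Tada2b in SAGA and Tada2a in ATAC, shifted with TG in melanoma. Tada2b rose to 67.5 and 67.0 CPM with TG, against 48.9 and 49.4 CPM with vehicle in control melanoma (0.45 ± 0.059, adjusted p = 6.2e-09), and by 0.56 ± 0.058 in KO melanoma. Tada2a fell to 27.6 and 27.8 CPM with TG, against 40.7 and 38.5 CPM with vehicle in control melanoma (-0.52 ± 0.078, adjusted p = 1.5e-07), and by 0.41 ± 0.077 on the log2 scale in KO melanoma. The ratio of Tada2b to Tada2a per kilobase of exon was 1.92 and 1.89 with TG and 0.942 and 1 with vehicle in control melanoma. In KO melanoma it was 1.94 and 1.95 with TG and 1.03 and 0.949 with vehicle. In activated T cells the ratio was 0.852 and 1.13 with TG and 0.541 and 0.515 with vehicle, and there only Tada2a was called (-0.82 ± 0.086, adjusted p = 2.4e-12); Tada2b changed by 0.08 (adjusted p = 0.43). The ratio was 1.38 and 1.25 with TG and 0.999 and 1.16 with vehicle in resting T cells; the Tada2b call there (0.24, adjusted p = 0.021) was lost without vehicle replicate 1 or TG replicate 1 (adjusted p = 0.23 and 0.21). Tada3, the adaptor of both complexes, rose by 0.25 in control melanoma (adjusted p = 0.0045) and fell by 0.26 in resting T cells on the log2 scale (adjusted p = 0.0023); DESeq2 gave adjusted p = 0.097 for the rise and 0.05 for the fall and called neither.

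In the SAGA core, Supt3 (ENSMUSG00000038954, chr17:44777152-45119290, plus strand), whose protein pairs 2 histone folds and is needed for loading of TATA-binding protein in yeast, showed the largest TG response of the 33 genes in every setting. In control melanoma it had 44.7 and 42.2 CPM with TG, against 15.3 and 17.1 CPM with vehicle (1.43 ± 0.084, 2.7-fold, adjusted p = 3.5e-19). In KO melanoma it had 44.3 and 45.5 CPM with TG, against 17.4 and 18.4 CPM with vehicle (1.33 ± 0.083, adjusted p = 3.4e-18). Resting T cells had 49.3 and 50.8 CPM with TG, against 15 and 14.4 CPM with vehicle (1.77 ± 0.084, 3.4-fold, adjusted p = 3.1e-26). Activated T cells had 61.8 and 60.9 CPM with TG, against 17.3 and 19.3 CPM with vehicle (1.75 ± 0.073, adjusted p = 9.5e-29). Every TG library was above every vehicle library of its cell type, and vehicle libraries of melanoma and of control T cells spanned 14.4 to 19.3 CPM. The TG effect was smaller in control melanoma than in resting (-0.35, adjusted p = 0.013) and activated T cells (-0.35, adjusted p = 0.0087), but the first difference lost its call without melanoma vehicle replicate 2 or resting vehicle replicate 2 (adjusted p = 0.096 and 0.056) and the second without melanoma vehicle replicate 2 or activated vehicle replicate 1 (adjusted p = 0.083 and 0.1). Activated Atp2a2 KO cells had 25.3 and 25.5 CPM of Supt3, above both activated control libraries (0.48 ± 0.084, adjusted p = 4e-06) and below those with TG.

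The 250 bases before the start of Supt3, chr17:44776916-44777165 (plus strand), are shown since it had the largest TG response, and they held no motif searched for.
Supt3: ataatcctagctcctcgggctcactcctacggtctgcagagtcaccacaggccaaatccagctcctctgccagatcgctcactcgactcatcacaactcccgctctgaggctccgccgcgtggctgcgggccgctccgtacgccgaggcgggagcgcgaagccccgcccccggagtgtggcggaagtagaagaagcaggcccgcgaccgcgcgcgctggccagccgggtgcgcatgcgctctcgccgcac

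The other core genes moved less with TG and not in 1 direction. In melanoma 5 of the 10 core genes rose and none fell in each genotype (Supt3, Supt7l, Supt20, Taf9b and Taf12), while in resting T cells 2 rose and 4 fell and in activated T cells 2 rose (Supt3 and Supt7l) and 2 fell (Tada1 and Taf5l). Of all tested genes between 32.4% and 36.3% were called in each direction in these 4 settings. Taf9b showed the widest contrast. In control melanoma it had 34.1 and 30.3 CPM with TG, against 18.3 and 20 CPM with vehicle (0.76 ± 0.087, adjusted p = 3.2e-10), and in resting T cells 22.9 and 26.4 CPM with TG, against 33.2 and 32.8 CPM with vehicle (-0.42 ± 0.083, adjusted p = 1.1e-05). The difference between these effects was 1.16 ± 0.12 (adjusted p = 1.4e-13). Supt20 rose in control melanoma and KO melanoma (both 0.28) and in resting T cells (0.21). Taf12, a histone-fold TAF, rose by 0.39 and 0.31 in control and KO melanoma, and its changes in T cells were -0.00 and 0.03. Taf5l, the SAGA form of the WD40 TAF, fell in activated T cells (-0.48 ± 0.063, adjusted p = 1.7e-09). Tada1 fell in resting T cells (-0.35, adjusted p = 0.00025). Its call in activated T cells (-0.20, adjusted p = 0.033) was less firm, as TG and vehicle libraries overlapped. On the 20-library scale it had 23.9 and 28.7 CPM with TG there, against 31.5 and 28.2 CPM with vehicle. DESeq2 did not call this change (adjusted p = 0.16), and it ran from -0.34 to -0.06 over the alternative runs. The Supt7l call in control melanoma (0.22) was lost without vehicle replicate 2 or TG replicate 2 (adjusted p = 0.12 and 0.076).

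Trrap, the scaffold of the PI3-kinase-like family that binds activators for SAGA and for NuA4, scattered between melanoma replicates. It had 165 and 170 CPM with TG and 247 and 211 CPM with vehicle in KO cells, and 223 and 268 CPM with TG and 272 and 230 CPM with vehicle in control cells. edgeR called it in no melanoma comparison. Its change was -0.55 between KO and control cells with TG (adjusted p = 0.06) and -0.45 between TG and vehicle in KO cells (adjusted p = 0.053). DESeq2 called both (adjusted p = 0.002 and 0.0074), as did edgeR fitted to only the groups compared (adjusted p = 0.0042 and 0.00026). It rose in resting T cells to 351 and 346 CPM with TG, against 218 and 242 CPM with vehicle (0.60 ± 0.12, adjusted p = 0.0042), and in activated T cells it had 244 and 255 CPM with TG and 262 and 234 CPM with vehicle (adjusted p = 0.96). The difference between the 2 effects (-0.59, adjusted p = 0.028) lost its call with any one of 6 of the 8 libraries left out (adjusted p up to 0.092).

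Both SF3B subunits fell with TG in all 4 settings. Sf3b3 had 330 and 324 CPM with TG, against 478 and 459 CPM with vehicle in control melanoma (-0.52 ± 0.034, adjusted p = 2.8e-17), and 320 and 326 CPM with TG, against 467 and 479 CPM with vehicle in activated T cells (-0.55 ± 0.035, adjusted p = 2.6e-20). The changes were -0.36 in KO melanoma and -0.37 in resting T cells. Sf3b5 fell by 0.70 and 0.72 in control and KO melanoma and by 0.40 and 0.50 in resting and activated T cells, on the log2 scale.

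In the deubiquitinase module, Atxn7 (ENSMUSG00000021738, chr14:13961440-14107302, plus strand), the subunit that anchors the module to SAGA and whose human gene carries the repeat expansion of a spinocerebellar ataxia, rose with TG in every setting. In control melanoma it had 39.8 and 37.6 CPM with TG, against 20.7 and 19.8 CPM with vehicle (0.93 ± 0.082, adjusted p = 2.4e-13), and in KO melanoma 44.9 and 43.6 CPM with TG, against 23.5 and 20.6 CPM with vehicle (1.00 ± 0.08). Among resting T cells it had 72.8 and 73.9 CPM with TG, against 45.0 and 49.4 CPM with vehicle (0.64 ± 0.061), and in activated T cells 55.7 and 54.6 CPM with TG, against 32.8 and 33.2 CPM with vehicle (0.74 ± 0.065). TG and vehicle libraries did not overlap in any of the 4.

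Its paralogs were called in some settings only. Atxn7l2 rose in resting T cells to 30.0 and 27.5 CPM with TG, against 17.3 and 18.8 CPM with vehicle (0.68 ± 0.092, adjusted p = 4.1e-09), and fell in activated T cells to 23.4 and 25.6 CPM with TG, against 33.2 and 32.6 CPM with vehicle (-0.42 ± 0.08, adjusted p = 6.3e-06). That difference of effects was the largest among the 33 genes between the 2 T cell states (-1.10 ± 0.12, adjusted p = 3e-11). Atxn7l2 also fell in control melanoma (-0.30, adjusted p = 0.018), a call lost without vehicle replicate 2 or TG replicate 1 (adjusted p = 0.14 and 0.15). Atxn7l1 rose in activated T cells (0.33 ± 0.058, adjusted p = 2.1e-06) and in resting T cells (0.15, adjusted p = 0.022), the second call lost without vehicle replicate 1, TG replicate 1 or TG replicate 2 (adjusted p = 0.19, 0.055 and 0.06). Neither of its changes in melanoma was called (0.16 in control and -0.12 in KO cells). Usp22, the ubiquitin protease itself, rose in activated T cells to 96.6 and 98.8 CPM with TG, against 60.2 and 63.2 CPM with vehicle (0.67 ± 0.051, adjusted p = 2.4e-17). Among resting T cells it had 69.8 and 68.3 CPM with TG and 69.4 and 68.7 CPM with vehicle (adjusted p = 0.99), and the difference of effects was 0.67 ± 0.075 (adjusted p = 5.1e-11). In KO melanoma Usp22 rose by 0.15, a call lost without KO TG replicate 2 (adjusted p = 0.1). Eny2, which the module shares with an mRNA export complex, rose in melanoma (0.27 in control and 0.34 in KO cells) and was not called in T cells.

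Among the ATAC-specific genes, 2 rose and 5 fell with TG in control melanoma, 2 rose and 4 fell in KO melanoma, 2 rose and 2 fell in resting T cells, and 1 rose and 5 fell in activated T cells, where each direction took between 32.4% and 36.3% of all tested genes. Zzz3, a reader of histone H3, rose to 170 and 163 CPM with TG, against 131 and 128 CPM with vehicle in control melanoma (0.36 ± 0.043, adjusted p = 8e-10), and in resting T cells to 111 and 113 CPM with TG, against 67.5 and 71.8 CPM with vehicle (0.69 ± 0.053, adjusted p = 2.9e-17). In activated T cells it had 98.5 and 105 CPM with TG and 101 and 107 CPM with vehicle (-0.02). The difference of effects between activated and resting T cells was -0.71 ± 0.072 (adjusted p = 2e-12). Dr1, the NC2 beta histone-fold repressor, rose in all 4 settings, most in resting T cells with 142 and 148 CPM with TG, against 88.4 and 84.9 CPM with vehicle (0.74 ± 0.047, adjusted p = 7.8e-21). Its other changes were 0.27, 0.28 and 0.20 in control melanoma, KO melanoma and activated T cells.

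Yeats2, the reader of acylated histone H3, fell with TG in all 4 settings by a like amount, -0.46 in control melanoma, -0.52 in KO melanoma, -0.42 in resting and -0.41 in activated T cells. Kat14 and Pole3 fell in both melanoma genotypes and in activated T cells. In control melanoma Kat14 had 90.3 and 87.9 CPM with TG, against 121 and 115 CPM with vehicle (-0.41 ± 0.049), and Pole3 had 54.0 and 50.3 CPM with TG, against 73.1 and 77.0 CPM with vehicle (-0.52 ± 0.058). Their changes in resting T cells were -0.10 and -0.08 and were not called. Wdr5, which also serves the COMPASS methyltransferases, fell in resting (-0.26) and more so in activated T cells (-0.58 ± 0.051, adjusted p = 6.2e-15), and the difference was called (-0.32, adjusted p = 0.00048). Its melanoma changes of -0.09 and -0.01 were not called. Mbip was called in none of these 4 comparisons, and Chrac1 only in control melanoma (-0.19, adjusted p = 0.045), a call lost without vehicle replicate 1 or 2 or TG replicate 1 (adjusted p = 0.08, 0.17 and 0.28).

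Activation of T cells without TG raised 13 and lowered 13 of the 33 genes (78.8%), where 74.4% of 13432 tested genes were called, 35.3% up and 39.1% down. The median size of change was 0.31 over the 33 genes and 0.58 over all tested genes. Within ATAC 6 of 9 genes rose and 1 fell. Tada2a had 31.3 and 31.6 CPM in activated cells, against 17 and 16.3 CPM in resting cells (0.91 ± 0.089, adjusted p = 1.2e-13), and Wdr5 had 103 and 105 CPM in activated cells, against 65.8 and 65.5 CPM in resting cells (0.67 ± 0.052). Zzz3 (0.58), Pole3 (0.37), Kat14 (0.35) and Dr1 (0.28) also rose, and Yeats2 fell (-0.28). Atxn7l2 rose by 0.87 ± 0.087 and Sf3b3 by 0.60 ± 0.036, while Kat2b (-1.29), Atxn7 (-0.51), Taf9b (-0.46), Sgf29 (-0.39), Taf6l (-0.39), Tada1 (-0.32) and Atxn7l1 (-0.31) fell. These calls were kept with each library left out, and 7 further calls of 0.14 to 0.31 in size were not. Supt3 (0.31) and Tada3 (-0.18) lost theirs without activated replicate 2 (adjusted p = 0.066 and 0.32), Tada3 also without resting replicate 1 (0.19). Supt7l (-0.23), Taf5l (0.20), Taf12 (0.17), Usp22 (-0.17) and Atxn7l3 (-0.14) lost theirs without activated replicate 1 (adjusted p = 0.12, 0.051, 0.055, 0.11 and 0.079). Supt7l did so too without resting replicate 1 (0.11), and Taf5l, Taf12 and Atxn7l3 without resting replicate 2 (0.059, 0.12 and 0.061).

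With TG, activation raised 8 and lowered 11 (57.6%, against 63.8% of tested genes, 32.0% up and 31.9% down). In these cells Tada2a, with 18.9 and 16.8 CPM in activated and 16 and 16 CPM in resting cells, was not called (0.15 ± 0.1), Dr1 was lower in activated cells (-0.26, adjusted p = 8.5e-07), and Usp22 was higher (0.50, adjusted p = 1.6e-12). Without activated TG replicate 1 the calls of Tada2b, Trrap, Atxn7l1, Atxn7l2 and Zzz3 were lost (adjusted p = 0.31, 0.075, 0.6, 0.22 and 0.36), and without resting TG replicate 1 also that of Taf12 (0.094). Kat14 lost its call without resting TG replicate 2 or either activated TG library (adjusted p = 0.22, 0.055 and 0.071). Between activated and resting T cells the TG effect differed for 7 genes upward and 11 downward (54.5%), where 51.9% of tested genes were called, 26.7% upward and 25.2% downward.

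**Figure D5:**
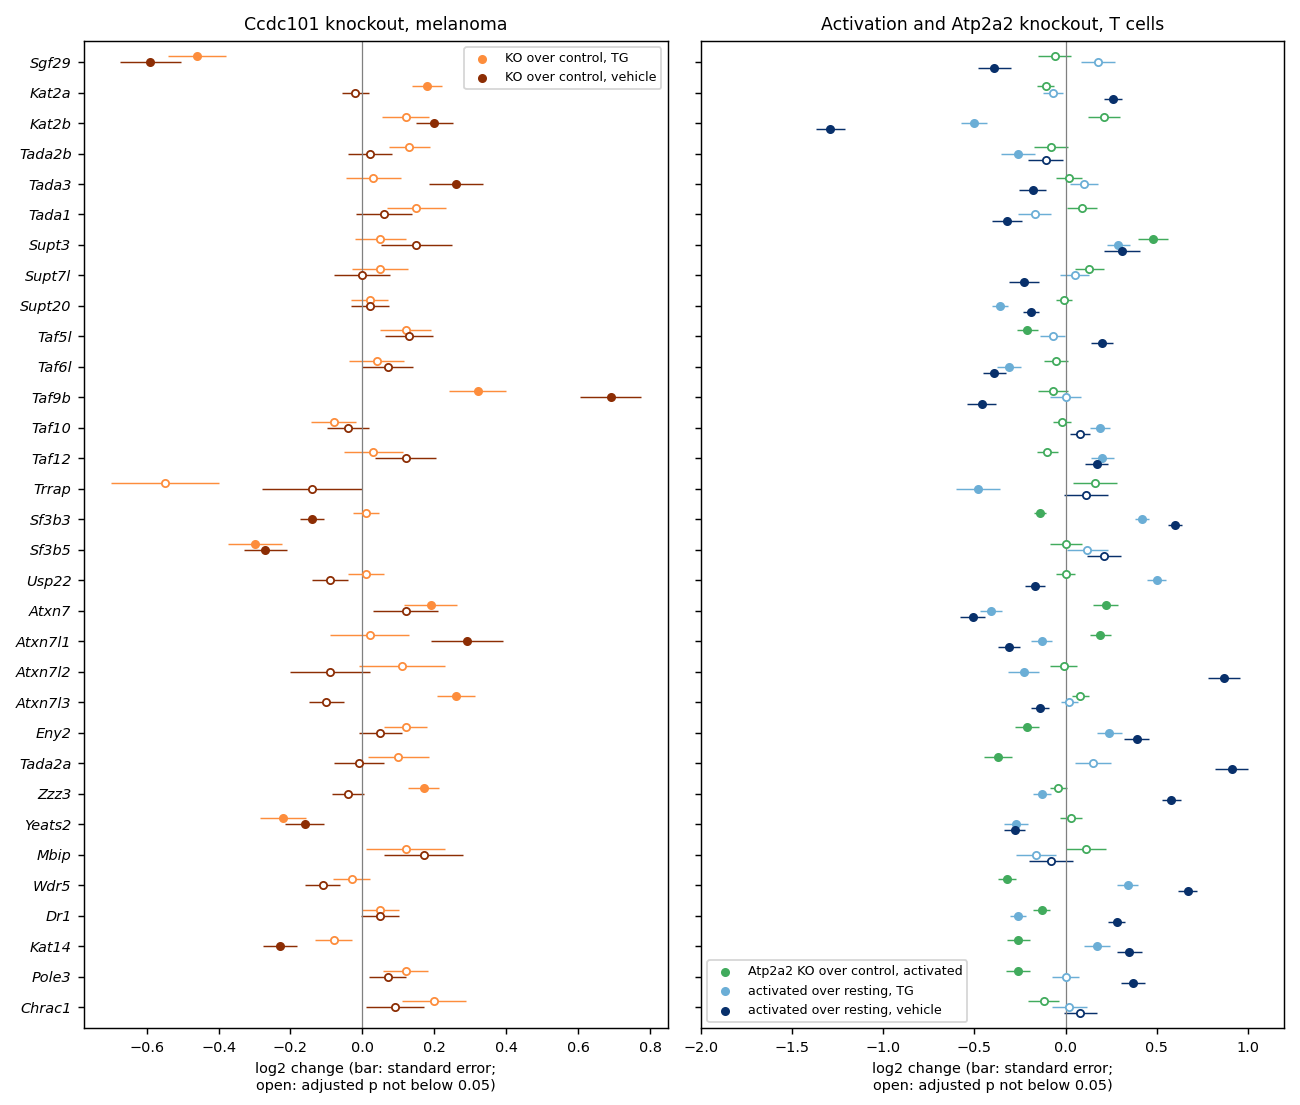
Left, log2 change of Ccdc101 KO over control melanoma with TG and with vehicle; right, log2 change of activated Atp2a2 KO over activated control T cells and of activated over resting control T cells with TG and with vehicle. Bars are standard errors and open points were not called. Of the called genes Sgf29 and Taf9b stand out on the left, where Trrap with TG (-0.55, not called) lies lower than Sgf29 with TG (-0.46). Kat2b, Tada2a and Atxn7l2 stand out on the right.

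Atp2a2 knockout in activated T cells, which targets the gene of a pump that TG inhibits, raised 3 and lowered 8 of the 33 genes (33.3%), where 37.1% of tested genes were called, 17.5% up and 19.6% down. Supt3 (0.48, adjusted p = 4e-06) rose, and Tada2a (-0.37, adjusted p = 0.00011), Wdr5 (-0.32, adjusted p = 2.1e-07), Kat14 (-0.26, adjusted p = 0.00074), Pole3 (-0.26, adjusted p = 0.00077) and Sf3b3 (-0.14, adjusted p = 0.0012) fell. The other calls were Atxn7 (0.22), Atxn7l1 (0.19), Taf5l (-0.21), Eny2 (-0.21) and Dr1 (-0.13). With TG in activated control cells these 11 genes changed by 1.75 (Supt3), -0.82 (Tada2a), -0.58 (Wdr5), -0.28 (Kat14), -0.45 (Pole3), -0.55 (Sf3b3), 0.74 (Atxn7), 0.33 (Atxn7l1), -0.48 (Taf5l), -0.00 (Eny2, not called) and 0.20 (Dr1, called in the opposite direction). Both comparisons use the same control libraries. Kat2b, at 20.4 and 20.4 CPM in KO cells and 17.3 and 17.9 CPM in control cells, did not pass (0.21, adjusted p = 0.052), and neither did Usp22 (-0.00, adjusted p = 0.96). Atxn7 lost its call without control replicate 1. Taf5l and Eny2 lost theirs without control replicate 1 or KO replicate 1, and Atxn7l1 without control replicate 2 or KO replicate 1. The Dr1 call was lost on leaving out any 1 of the 4 libraries compared. DESeq2 called none of these genes (adjusted p = 0.077 for Taf5l and 0.12 for each of the others).

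The libraries labelled resting Atp2a2 KO were set beside both control states. Against resting control cells 9 genes were higher and 10 lower (57.6%, against 69.6% of tested genes, 33.7% higher and 35.9% lower), and against activated control cells 2 were higher and 5 lower (21.2%, against 31.5% of tested genes, 15% higher and 16.6% lower). Kat2b had 22.1 and 20.9 CPM in them, against 42.8 and 43.2 CPM in resting and 17.3 and 17.9 CPM in activated control cells. Supt3 had 25.5 and 25.7 CPM, above both control states (0.80 against resting and 0.49 against activated cells, adjusted p = 4e-10 and 1.5e-05).

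The 2 cell types differed in their levels of these genes. With vehicle, 11 of the 33 genes were higher and 15 lower in control melanoma than in resting T cells (78.8%, against 83.7% of 14824 tested genes, 40.8% higher and 43.0% lower), and 11 were higher and 16 lower than in activated T cells (81.8%, against 82.7%, 39.0% higher and 43.7% lower). Of the 9 ATAC genes 5 were higher and 2 lower than in resting cells, Dr1 (-0.53) and Yeats2 (-0.16) among the lower, and 5 were higher and 2 lower than in activated cells. DESeq2 did not call Yeats2 against resting cells (adjusted p = 0.25) or Wdr5 against activated cells (-0.13, adjusted p = 0.23). Several smaller differences in these 2 comparisons, those of Yeats2, Wdr5 and Tada2a among them, were not kept with each library left out. Kat2a was 2.82-fold higher than in resting cells (1.5 ± 0.045, adjusted p = 1.7e-44), Kat14 2.75-fold (1.46 ± 0.057), Tada2a 2.1-fold and Tada2b 1.9-fold. Of the 10 core genes, 7 were lower and none higher than in resting cells, Taf12 (-0.99) and Taf9b (-0.97) most. Atxn7l1 was the farthest apart, with a log2 difference of -2.48 ± 0.076 (adjusted p = 1.6e-41), and Atxn7 differed by -1.39 ± 0.076. Against activated T cells Kat2b stood out, 3.64-fold higher in melanoma (1.86 ± 0.068, adjusted p = 1.3e-38), while Atxn7l1 was lower by -2.12 ± 0.076. Sgf29 differed little, -0.20 against resting and 0.25 against activated cells, and both calls were lost on leaving out single libraries (without resting vehicle replicate 1 or melanoma vehicle replicate 2, adjusted p = 0.64 and 0.14; without activated vehicle replicate 1 or melanoma vehicle replicate 1, 0.15 and 0.068).

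The size of the TG effect also differed between the cell types. Between control melanoma and resting T cells it differed for 6 genes upward and 13 downward (57.6%), where 47.4% of 14824 tested genes were called, 23.6% upward and 23.8% downward. Between control melanoma and activated T cells it differed for 8 genes upward and 5 downward (39.4%), where 43.4% of tested genes were called, 21.6% upward and 21.8% downward. Taf9b differed most upward (1.16 and 0.70), and Kat2b, at -0.78 and -1.57, differed downward against both T cell states. These 2 comparisons share the melanoma libraries.

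Genes of neighbouring complexes gave a setting for these values. The histone deacetylases listed, which oppose acetyltransferases, were those of class I and II and the class IV gene Hdac11. Of the 10 tested, 2 rose and 8 fell with TG in control melanoma and 2 and 8 in KO melanoma. In resting T cells 2 rose and 7 fell, and in activated T cells 3 and 3. The median log2 change was -0.64, -0.55, -0.46 and -0.17, against -0.00, -0.02, 0.01 and 0.01 over all tested genes. Hdac8 rose most (1.02, 0.93, 0.70 and 1.5 in that order) and Hdac7 fell most among those reaching 10 CPM (-1.12, -1.5, -1.54 and -1.21). Of 10 other histone acetyltransferases 6 rose and 1 fell, 7 and 1, 5 and 3, and 8 and 2 in the same order, with a median of 0.28, 0.34, 0.02 and 0.28. Kat6b, the MORF acetyltransferase, rose most (1.43, 1.38, 1.69 and 1.04), and Hat1, which acetylates newly made histone H4, fell most (-1.13, -1.07, -0.70 and -0.71). Of 5 SF3B genes outside SAGA 4 fell and none rose, 4 fell and 1 rose, 4 fell and 1 rose, and 3 fell and none rose, Sf3b4 among those that fell at -0.35 in control melanoma. Of 11 partners of Pole3, Chrac1, Dr1 and Eny2 in other complexes 8, 6, 9 and 9 fell and 0, 1, 1 and 0 rose, Pole2 of DNA polymerase epsilon most (-1.63, -1.44, -1.5 and -1.40). In the same 4 settings between 32.4% and 36.3% of all tested genes were called in each direction.

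The remaining lists were divided. Of 17 NuA4 genes 5 rose and 4 fell in control melanoma, 9 and 4 in KO melanoma, 7 and 2 in resting and 7 and 5 in activated T cells, and of 12 TFIID genes outside SAGA 3 and 3, 5 and 1, 3 and 5, and 2 and 5. Of 14 COMPASS partners of Wdr5, 6 and 3, 3 and 3, 5 and 3, and 3 and 5 rose and fell. In the knockout comparison, 6 of the 14 COMPASS partners with vehicle and 5 with TG were lower in KO than in control melanoma and none higher, where 13.3% and 15% of all tested genes were lower, with a median of -0.15 and -0.17 against 0.00 and 0.01 over all tested genes; Setd1b, a histone H3 lysine 4 methyltransferase, was the lowest of those called (-0.43, adjusted p = 8.4e-07 with vehicle, and -0.59, adjusted p = 7e-11 with TG). With TG the other called partners were Kmt2c (-0.57), Kmt2b (-0.44), Ncoa6 (-0.32) and Kdm6a (-0.23). Kmt2d (-0.94 ± 0.25) and Kmt2a (-0.75 ± 0.21) were lower still with larger standard errors and were not called. The rest of the list ran from -0.11 (Setd1a and Cxxc1) to 0.08 (Ash2l) with TG and was not called. Whether this split went with transcript length was not tested. Other lists showed lower genes in KO cells too, and some showed higher genes. Of the other histone acetyltransferases with TG, Ep300 (-0.28), Crebbp (-0.44), Kat6a (-0.20), Ncoa1 (-0.30) and Ncoa2 (-0.14) were lower in KO cells and none was higher. Of the SF3B genes outside SAGA with vehicle, Sf3b1 (-0.08), Sf3b2 (-0.13) and Sf3b4 (-0.30) were lower and none was higher. Of the 17 NuA4 genes 1 was lower and none higher in KO cells with vehicle, and 2 were higher and none lower with TG. Of the deacetylases with TG, Hdac1 (0.38), Hdac10 (0.35) and Hdac6 (0.32) were higher and none was lower. Of the partners of Pole3, Chrac1, Dr1 and Eny2 with TG, Cetn3 (0.34), Pole2 (0.34) and Drap1 (0.17) were higher and none was lower. With vehicle, Hdac7 (0.42) was higher, and Baz1a (-0.16) and Mcm3ap (-0.14) were lower. Of the TFIID genes with TG, Taf4b (0.47) was higher, and Taf4 (-0.25) and Taf1 (-0.15) were lower. Atxn7l3b, a paralog that can compete for deubiquitinase partners, rose by 0.18 and 0.35 with TG in control and KO melanoma.

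Promoters of 28 of the 33 genes could be matched to RefSeq (40 promoters, from 250 bases before to 50 after each start on GRCm38.p6), and both strands were searched for 6 stress-linked motifs. The endoplasmic reticulum stress elements ERSE and ERSE-II, the cyclic AMP response element TGACGTCA and the ATF4-CHOP element TGATGNAA were found in none of them; over 32851 promoters of the same length they were found in 0.119%, 0.0365%, 1.79% and 3.97%. TGACGTG, which shares its first 6 letters with the cyclic AMP response element, was found for Sgf29 and Yeats2, against 2.01% of all promoters. The E-box CACGTG was found for 6 genes (Dr1, Tada2a, Taf12, Taf5l, Taf6l and Taf9b), against 7.15% of all promoters. The member counts are of genes, over 28 genes with 40 promoters, and the shares are of promoters. A gene with more than 1 promoter had more windows to match, so counts and shares are not alike. Of the genes with a match, Dr1 rose and Yeats2 fell with TG in all 4 settings, and the window of Supt3, which rose in all 4, held no match. The 1 RefSeq window of Atxn7 lies inside the span of the GENCODE gene, not before its first start; it is among those searched and is not shown.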

How the data were processed

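The files hold raw counts per Ensembl gene for 20 libraries, as the authors deposited them. The submitters' processing notes name STAR 2.6.0c, HTSeq and the mouse build GRCm38/mm10; strand setting and annotation release are not given in the sources used here. Of 46603 identifiers 46005 could be named from GENCODE M21, and the others held 0.0759% of counts.

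Counts were tested with edgeR 4.0.16 in R 4.3.3 (TMM, filterByExpr, robust quasi-likelihood F test). Melanoma (8 libraries, 12540 genes), T cells (12, 13432) and all 20 libraries (14824) were fitted apart, leaving 4, 6 and 10 residual degrees of freedom; edgeR's common coefficient of variation between replicates was 2.71%, 2.8% and 2.77%. Adjustment ran over all genes of a fit. The fit was tested on simulated counts. Members and gene lists were chosen with earlier results of these data known. All members could be named. Of each partner list, the called genes that rose and fell most per comparison could be named, if the higher group reached 10 CPM. For the Ccdc101 KO comparisons further partner genes were named. Alternatives were DESeq2 1.42.0, RLE scaling, no filter, 5 CPM in 2 libraries, a replicate block, only the groups compared, each library left out, and the libraries labelled resting left out. Promoter windows are from RefSeq.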

Additional observations from a re-analysis of the deposited data

Results flagged for a closer look

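Each value here is a difference between 2 log2 TG effects that edgeR called at an adjusted p below 0.05, which is why it is listed; the share of tested genes called stands in the report. For the TG effect in KO minus control melanoma these were 0.20 for Kat2a, 0.16 for Sf3b3, 0.36 for Atxn7l3, 0.20 for Zzz3 and -0.37 for Taf9b.

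For the TG effect in activated minus resting T cells, the acetylation module gave 0.57 for Sgf29, -0.34 for Kat2a, 0.79 for Kat2b and 0.29 for Tada3. The core gave 0.28 for Supt7l, -0.17 for Supt20, -0.27 for Taf5l and 0.46 for Taf9b. Trrap differed by -0.59, Sf3b3 by -0.18, Usp22 by 0.67, Atxn7l2 by -1.10 and Atxn7l3 by 0.16. Of the ATAC genes Tada2a differed by -0.76, Zzz3 by -0.71, Wdr5 by -0.32, Dr1 by -0.54 and Pole3 by -0.37. The calls of Tada3, Supt7l, Supt20, Taf5l, Taf9b, Trrap and Atxn7l3 were lost on leaving out at least 1 library.

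For the TG effect in control melanoma minus resting T cells, the acetylation module gave 0.63 for Sgf29, -0.55 for Kat2a, -0.78 for Kat2b and 0.49 for Tada3. The core gave 0.33 for Tada1, -0.35 for Supt3, 1.16 for Taf9b and 0.38 for Taf12. Trrap differed by -0.66, Sf3b3 by -0.17 and Sf3b5 by -0.32. Atxn7 differed by 0.27, Atxn7l2 by -0.99 and Atxn7l3 by -0.23. Tada2a differed by -0.48, Zzz3 by -0.34, Dr1 by -0.49, Kat14 by -0.33 and Pole3 by -0.46. The calls of Tada1, Supt3, Taf12, Trrap, Sf3b3, Sf3b5 and Atxn7 were lost on leaving out at least 1 library.

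For the TG effect in control melanoma minus activated T cells, Kat2a differed by -0.21, Kat2b by -1.57 and Tada2b by 0.34. The core gave -0.35 for Supt3, 0.22 for Supt20, 0.42 for Taf5l, 0.70 for Taf9b and 0.34 for Taf12. Usp22 differed by -0.65, Atxn7l3 by -0.40, Eny2 by 0.25, Zzz3 by 0.36 and Wdr5 by 0.46. The calls of Tada2b, Supt3, Supt20, Taf12 and Eny2 were lost on leaving out at least 1 library. The last 2 comparisons share the melanoma libraries.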

How the results depend on the processing

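No member's called change reversed its direction under any alternative run. By DESeq2 the members called were 1 higher for KO with vehicle, 3 higher for KO with TG, 1 higher and 0 lower for the TG effect in KO minus control melanoma, 7 lower for TG in resting T cells, 7 lower for activation with TG, 4 higher for the TG effect in activated minus resting T cells, 1 higher and 5 lower for Atp2a2 KO, 1 higher and 3 lower for the libraries labelled resting over activated control, and 4 higher for the TG effect in melanoma minus activated T cells. Without the filter they were 0 lower for the TG effect in KO minus control melanoma, 8 lower for activation with vehicle, 4 higher for the TG effect in activated minus resting T cells, and 1 higher and 12 lower for the libraries labelled resting over activated control. With at least 5 CPM in 2 libraries, 5 were higher for Atp2a2 KO. With 1 library left out, counts ran from 1 to 3 higher for KO with vehicle, 3 to 5 higher for KO with TG, 2 to 4 higher and 0 to 1 lower for the TG effect in KO minus control melanoma, 6 to 12 lower for activation with TG, 3 to 6 higher for the TG effect in activated minus resting T cells, 5 to 9 lower for Atp2a2 KO, and 1 to 2 higher and 2 to 4 lower for the libraries labelled resting over activated control. The cause was not tested. A fit that left a group with 1 library assumed that it varies like the others. Deviations of same-numbered libraries correlated at -0.1 to 0.049 in melanoma and -0.16 to 0.16 in T cells (3 of 15 pairs over 0.1). Such low values cannot show whether same-numbered libraries were prepared together, since counting noise also lowers them. With the replicate block, 12 members rose and 11 fell with TG in control melanoma, and no count moved past 1.5 times. Depth limits Taf9 (7 to 26 counts per library).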
